A study of Mus musculus with 9 samples.

Results

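The blood endothelial identity genes are 10 genes by which blood vessel lining is usually recognized: Cdh5, Pecam1, Cldn5 and Esam at cell junctions, Plvap, Emcn and Eng on the cell surface, Vwf and Egfl7 among secreted proteins, and the transcription factor Erg. They were found by gene symbol, and make up 10 of the 18349 genes listed in the count tables. All 10 were among the 15010 genes that passed the filter on low counts. Mouse iris RNA was sequenced in 3 groups with 3 libraries per group, 9 in all, and 3 irises were pooled for a library. Sham VEGFR3fl/fl irises came from mice with loxP-flanked Vegfr3 alleles and no Cre whose corneas received PBS. Injured VEGFR3fl/fl irises came from mice of this genotype after corneal alkali injury (CAI), made by sodium hydroxide (1 M, 0.5 μL) left on the cornea for 60 seconds. Injured VEGFR3iLECko irises came from CAI mice that also carried Prox1CreERT2, a tamoxifen-activated Cre driven by Prox1, the master factor of lymphatic endothelial identity, so that deletion depends on the use of Prox1. Mice were treated at 6 weeks of age, and irises were collected at week 10, on day 28 after injury. Tamoxifen at 80 mg/kg was given on days 13 to 17 to mice with and without Cre, and the labels except no group from it. The genotype tags of VEGFR3iLECko replicates 2 and 3 carry a different receptor number than their titles, and both were placed by title.

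Blood endothelial cells form a continuous inner layer of every vessel, and in the iris this layer is part of the blood-ocular barrier, which depends on tight junctions and on the absence of open fenestrae. Cdh5 (VE-cadherin) forms the adherens junctions of that layer, while Cldn5 seals its tight junctions and is the leading claudin of barrier vessels. Plvap forms the diaphragms of fenestrae and caveolae and is known as a marker of leaky vessels, and it is normally low where Cldn5 is high. Erg, a member of the ETS family of transcription factors, is known to maintain expression of Cdh5, Cldn5 and Vwf in resting endothelium. Several members are also used outside blood vessels: Pecam1 by leukocytes and platelets, Vwf by megakaryocytes and platelets, and Cdh5, Pecam1, Erg and others by lymphatic endothelium. RNA of a whole tissue cannot tell fewer cells of a type from less RNA per cell, and this holds for every value given for the members.

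Totals were 16617187 to 18306359 counts per library, and a member had between 250 and 6983 counts in a library. Injured VEGFR3fl/fl replicate 1 stood apart from its group. Its chi-square per degree of freedom over genes was 76.2 against replicate 2 and 67.4 against replicate 3, while the other pairs of replicates lay between 5.13 and 27.9. Summed CPM (library-scaled counts on the TMM scale) of 4 Y-linked genes was 51.1 to 167 in Sham, 151, 136 and 0.804 in injured VEGFR3fl/fl replicates 1 to 3, and 0.736 to 1.11 in VEGFR3iLECko. The share of male irises in a library thus differed between the groups, and in the injured libraries it cannot be told apart from genotype except through injured VEGFR3fl/fl replicate 3. Flt4, which encodes VEGFR3 and is the deleted gene, had 16.8, 20.7 and 23.0 CPM in injured VEGFR3fl/fl and 27.9, 21.0 and 27.4 CPM in VEGFR3iLECko, so that Flt4 RNA of the whole iris was not lower in the libraries labelled VEGFR3iLECko (log2 fold change 0.34 ± 0.15 (SE), adjusted p = 0.2). These counts cover the whole gene, including exons that deletion leaves in place. Prox1, which drives the Cre, was at 0.574 to 4.49 CPM in the 9 libraries. Of 15 genes of iris pigment epithelium and muscle, 12 fell and 1 rose after injury, with summed CPM of 34820 to 38580 in Sham and 5049 to 8215 in injured VEGFR3fl/fl.

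Promoter sequence from RefSeq (GRCm38.p6, 250 bases before to 50 after a transcription start) was matched for 5 of the 10 members, with 9 starts in all. The 250 bases before the start are shown for Cldn5, which fell after injury, and for Emcn, Egfl7 and Eng, which rose, so that the letters of these promoters can be set side by side. Regions are chr16:18776597-18776846 for Cldn5, chr3:137340828-137341077 for Emcn, chr2:26580833-26581082 for the most upstream listed start of Egfl7 and chr2:32646345-32646594 for Eng, each on the + strand. Capitals mark letters that match any of the motifs searched.
Cldn5: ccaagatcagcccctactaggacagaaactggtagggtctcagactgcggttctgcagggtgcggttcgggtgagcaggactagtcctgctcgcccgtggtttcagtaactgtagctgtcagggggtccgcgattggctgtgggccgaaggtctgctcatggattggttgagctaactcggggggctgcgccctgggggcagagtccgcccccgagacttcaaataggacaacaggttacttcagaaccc
Emcn: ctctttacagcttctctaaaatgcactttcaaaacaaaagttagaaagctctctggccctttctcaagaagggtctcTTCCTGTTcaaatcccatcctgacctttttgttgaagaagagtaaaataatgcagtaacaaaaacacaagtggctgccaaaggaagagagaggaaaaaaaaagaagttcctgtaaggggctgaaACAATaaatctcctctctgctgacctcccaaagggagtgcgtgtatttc
Egfl7: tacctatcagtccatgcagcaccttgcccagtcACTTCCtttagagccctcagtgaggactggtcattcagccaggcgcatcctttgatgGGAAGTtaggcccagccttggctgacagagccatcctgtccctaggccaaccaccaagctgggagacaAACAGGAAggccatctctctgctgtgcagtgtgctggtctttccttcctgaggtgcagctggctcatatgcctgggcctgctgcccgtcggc
Eng: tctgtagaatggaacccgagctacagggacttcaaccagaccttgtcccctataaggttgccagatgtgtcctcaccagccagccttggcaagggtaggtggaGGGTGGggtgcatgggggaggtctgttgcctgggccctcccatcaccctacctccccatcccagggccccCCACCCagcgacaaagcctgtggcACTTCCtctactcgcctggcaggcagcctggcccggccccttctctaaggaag

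Motifs were searched on both strands among the 32851 promoters of the table. The ETS motif, written GGAAGT, was present in 23.8% of these windows. The FOX:ETS composite, known from endothelial enhancers and written AACAGGAA, was present in 2.65%, and because it ends like the ETS motif begins, matches of both can overlap. The SOX motif, for which the letters ACAAT were used, was present in 31.0% of windows. The GATA motif, searched as AGATAA in either direction, was present in 11.2% of windows. The KLF motif, which was spelled CCACCC for this search, was present in 31.5% of windows. The TATA box, with the letters TATAAA as its usual form, was present in 13.6% of windows. The Emcn promoter held the FOX:ETS composite at positions -173 to -166 from the start, on the opposite strand, and a SOX core at -49 to -45. The first Egfl7 promoter held the composite at -92 to -85 and the ETS core at -217 to -212 and -160 to -155. The Eng promoter held an ETS core at -53 to -48 and a KLF core at -147 to -142 and -77 to -72. In the Cldn5 window none of the 6 motifs was found, and the same was true of the first Erg start and the last Egfl7 start. A match is a description of letters, and its absence from these 300 bases says nothing about regulation from elsewhere.

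The first comparison, injured VEGFR3fl/fl against Sham, asks what CAI does to these genes. Of the 10 members, 9 rose and 1 fell (edgeR quasi-likelihood test, Benjamini-Hochberg adjusted p under 0.05 and more than 1.5-fold), with a median log2 fold change of 1.51 where the median over all genes tested was 0.01. Over all genes tested, 22.1% were called higher and 17.5% lower. Pecam1, Erg and Cdh5 rose most, while Cldn5, the barrier claudin, was the member that fell. In 9 members every injured library lay above every Sham library, against 33.9% of all genes, and in Cldn5 every injured library lay below, against 32.4% of all genes.

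Among the junction genes, Pecam1 (gene ID 18613, chr11:106654217-106750628, - strand, GRCm38), an adhesion molecule at the contacts between endothelial cells, had 42.7, 50.1 and 49.1 CPM in Sham replicates 1 to 3. It had 272, 306 and 288 CPM in injured VEGFR3fl/fl and 247, 301 and 314 CPM in VEGFR3iLECko. Both injured groups lay far above Sham, overlapped each other, and the rise was 6.11-fold (log2 2.61 ± 0.11 (SE), adjusted p = 2.36e-07). Cdh5 (gene ID 12562, chr8:104101625-104144511, + strand) had 73.7, 72.0 and 78.7 CPM in Sham, 233, 356 and 360 CPM in injured VEGFR3fl/fl and 297, 342 and 357 CPM in VEGFR3iLECko. Injured replicate 1 was the lowest injured library for Cdh5, yet still above the Sham libraries, and the rise was 4.23-fold (log2 2.08 ± 0.16, adjusted p = 7.31e-06). Esam (gene ID 69524, chr9:37528078-37538319, + strand), an immunoglobulin-family adhesion molecule of endothelial tight junctions, had 33.3, 42.9 and 37.8 CPM in Sham, 92.1, 118 and 112 CPM in injured VEGFR3fl/fl and 97.7, 84.6 and 96.8 CPM in VEGFR3iLECko. Its groups after injury overlapped, and it rose 2.82-fold (log2 1.49 ± 0.12, adjusted p = 9.03e-06).

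Cldn5 (gene ID 12741, chr16:18776847-18778262, + strand) is a gene of 1 exon and 1416 bases that shares no exonic base with another gene of the annotation. It had 95.5, 136 and 109 CPM in Sham, 78.0, 58.3 and 61.2 CPM in injured VEGFR3fl/fl and 51.1, 44.3 and 46.3 CPM in VEGFR3iLECko. The 3 groups did not overlap, with Sham highest and VEGFR3iLECko lowest. The log2 change after injury was -0.79 ± 0.15 (SE, 95% confidence interval -1.12 to -0.45, adjusted p = 0.00145), and it lay between -0.93 and -0.64 when each library was left out in turn. Under a 2-fold threshold, Cldn5 would not be called.

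**Figure D1:**
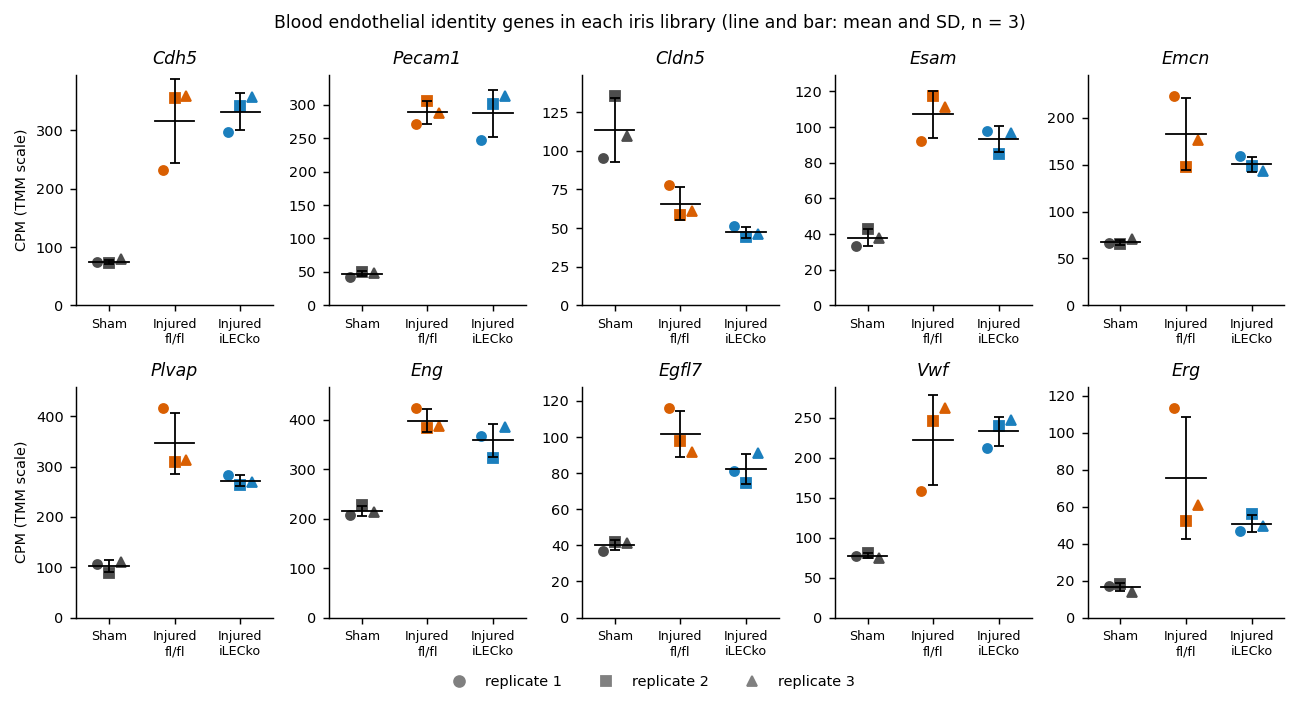
Level of each blood endothelial identity gene in the 9 iris libraries, as CPM on the TMM scale (vertical axis of each panel, from 0) for the 3 groups (horizontal axis). Points are libraries, shaped by replicate number, and lines with bars are the mean and SD of 3 libraries. Every member but Cldn5 sits higher in both injured groups than in Sham, and Cldn5 sits lower.

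Among the surface genes, Plvap (gene ID 84094, chr8:71497765-71511752, - strand) had 107, 88.2 and 111 CPM in Sham, 417, 309 and 313 CPM in injured VEGFR3fl/fl and 284, 263 and 269 CPM in VEGFR3iLECko. Its rise after injury was 3.39-fold (log2 1.76 ± 0.14, adjusted p = 6.14e-06), in the opposite direction to Cldn5. Emcn (gene ID 59308, chr3:137341067-137432185, + strand), a sialomucin typical of capillaries and veins, had 66.02, 65.8 and 70.6 CPM in Sham, 224, 148 and 177 CPM in injured VEGFR3fl/fl and 159, 149 and 143 CPM in VEGFR3iLECko. It rose 2.71-fold (log2 1.44 ± 0.14, adjusted p = 2.14e-05), with no overlap with Sham. Eng (gene ID 13805, chr2:32646595-32682669, + strand), a co-receptor for BMP9 and TGF-beta ligands that is mutated in hereditary haemorrhagic telangiectasia, had 208, 227 and 213 CPM in Sham, 424, 384 and 386 CPM in injured VEGFR3fl/fl and 368, 322 and 386 CPM in VEGFR3iLECko. It was the member with the smallest rise, 1.84-fold (log2 0.88 ± 0.09, adjusted p = 3.29e-05), and it shares 61 exonic bases with Fpgs on the other strand, in counts whose strand setting was not given in the sources used here.

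Among the secreted proteins, Vwf (gene ID 22371, chr6:125546774-125686679, + strand), the clotting protein stored in Weibel-Palade bodies, had 77.0, 81.2 and 74.3 CPM in Sham, 158, 246 and 262 CPM in injured VEGFR3fl/fl and 212, 239 and 247 CPM in VEGFR3iLECko. Injured replicate 1 was the lowest injured library for Vwf too, and the rise was 2.87-fold (log2 1.52 ± 0.17, adjusted p = 6.01e-05). Egfl7 (gene ID 353156, chr2:26580014-26593120, + strand), a matrix protein of vessel tubes and the host gene of miR-126, had 36.9, 41.9 and 41.2 CPM in Sham, 116, 97.6 and 91.8 CPM in injured VEGFR3fl/fl and 81.1, 74.5 and 90.9 CPM in VEGFR3iLECko. It rose 2.54-fold (log2 1.35 ± 0.11, adjusted p = 9.24e-06), and it shares 459 exonic bases with neighbouring genes and its hosted miRNAs, so that its counts are less certain than those of the other members.

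Erg (gene ID 13876, chr16:95359169-95586593, - strand) was the least abundant member in Sham, with 17.2, 18.1 and 14.1 CPM. It had 114, 52.0 and 61.2 CPM in injured VEGFR3fl/fl and 47.0, 56.0 and 49.5 CPM in VEGFR3iLECko. Injured replicate 1 held roughly as much Erg as the other injured VEGFR3fl/fl libraries together, and the coefficient of variation in that group was 44.0%, the highest of any member in any group. Erg rose 4.59-fold (log2 2.198 ± 0.27, adjusted p = 0.00011), and by 1.78 on the log2 scale without that library (adjusted p = 5.11e-06).

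**Figure D2:**
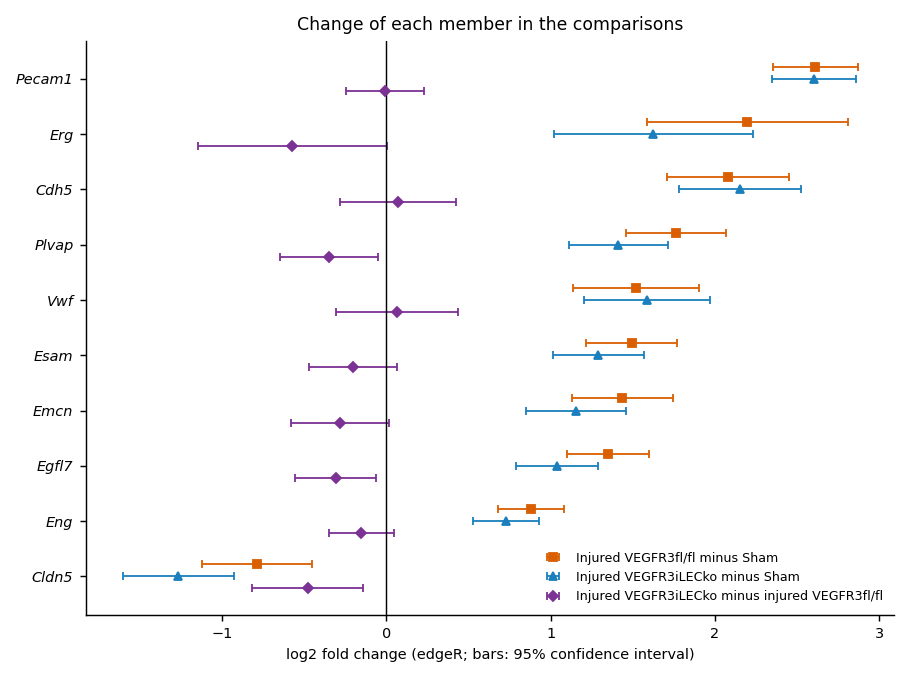
Log2 fold change of each member (horizontal axis, bars are 95% confidence intervals from edgeR) in the 3 comparisons, with members ordered by their change after injury. Changes against Sham run from -0.79 for Cldn5 to 2.61 for Pecam1 in injured VEGFR3fl/fl, while those between the injured groups lie between -0.57 and 0.07.

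Injured replicate 1 divided the members. It was the highest of its group for 6 of them (Cldn5, Emcn, Plvap, Eng, Egfl7 and Erg) and the lowest for 4 (Cdh5, Pecam1, Esam and Vwf). Summed over the 10 members, however, it held 2127 CPM against 2075 and 2112 CPM in replicates 2 and 3, so that the sum of the members was close in the 3 libraries while its make-up was not. The same library had the highest level of Lyz2, a lysozyme of macrophages and neutrophils (17620 CPM, against 9118 and 12450 CPM), whereas the other 13 leukocyte markers summed to 1565, 1494 and 1616 CPM in replicates 1 to 3. Of the 11 arterial genes, Mgp was highest in replicate 1 (2083 CPM, against 771 and 574 CPM), and the other 10 summed to 194, 393 and 288 CPM, so that they were lowest there. The part of these in its member levels was not tested. Without it, 9 members were still called higher and 1 lower after injury.

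The members did not change by the same factor, which was tested within each library as the log2 ratio of a member to the mean of the other 9, a value that does not depend on the scaling of the library. The Cldn5 ratio was 0.72, 1.14 and 0.86 in Sham and -1.35, -1.68 and -1.65 in injured VEGFR3fl/fl, a difference of -2.47. The ratio of Eng also fell, by 0.62, and those of Pecam1, Erg, Cdh5 and Plvap increased, by 1.31, 0.76, 0.68 and 0.35. For these 6 members the groups did not overlap, and the two-sided exact permutation p was 0.1, the smallest that 3 against 3 allows (0.167 adjusted over the 10 members), so that the design could not pass a threshold of 0.05. The ratios of Esam, Emcn, Egfl7 and Vwf overlapped between Sham and injured libraries, with differences from -0.11 to 0.06. Since the ratio is taken to the other members, the fall of Cldn5 raises the ratios of the rest. Ratios to the members without Cldn5 were not computed. The log2 change of Plvap was 1.76, and the members that rose ran from 0.88 (Eng) to 2.61 (Pecam1). Its ratio thus does not place Plvap above the other members that rose. Nor does the overlap of Esam, Emcn, Egfl7 and Vwf show that they kept level with those members.

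**Figure D3:**
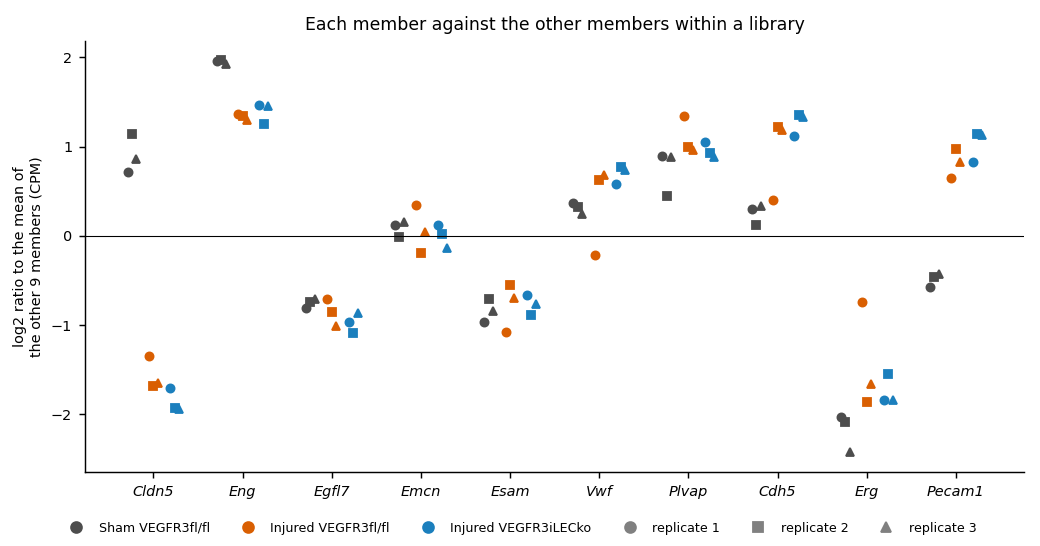
Log2 ratio of each member to the mean of the other 9 (vertical axis) in each library, by group (colour) and replicate (shape). Cldn5 moves from between 0.72 and 1.14 in Sham to between -1.94 and -1.35 in the 6 injured libraries, and Pecam1 moves from below 0 to above it.

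Levels between members were compared per transcript length, as approximate TPM (a length-corrected share of a library's RNA) from the longest annotated transcript of each gene. In Sham, Cldn5 was the first of the 10 members with 228 TPM (range 200 to 263 over 3 libraries), followed by Eng with 180 (179 to 182) and Plvap with 147 (122 to 161), whose ranges did not overlap. Egfl7, Esam, Emcn and Cdh5 followed at 61.3, 58.2, 54.9 and 53.6 TPM, and each of these overlapped with its neighbour. Pecam1, Vwf and Erg came last with 39.2, 25.1 and 14.5 TPM. In injured VEGFR3fl/fl, Plvap was first with 403 TPM (377 to 445) and Eng was next with 270 TPM (263 to 276). Pecam1, Cdh5, Esam, Egfl7, Emcn and Cldn5 then ran from 196 to 108 TPM with overlapping neighbours, and Vwf (59.4) and Erg (53.0) overlapped as well. In VEGFR3iLECko the order was the same, from Plvap with 354 TPM and Eng with 270 TPM to Cldn5 with 86.1, Vwf with 68.2 and Erg with 40.5 TPM.

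Cldn5 made up 23.8%, 30.2% and 25.4% of the members' summed TPM in Sham replicates 1 to 3, 7.31%, 5.98% and 6.22% in injured VEGFR3fl/fl and 5.90%, 5.19% and 5.06% in VEGFR3iLECko. The share of Plvap was 14.0% to 19.0% in Sham and 22.6% to 27.8% in injured VEGFR3fl/fl. A member of the tight junction was thus replaced in first place by the member of the fenestral diaphragm, by this approximate scale.

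**Figure D4:**
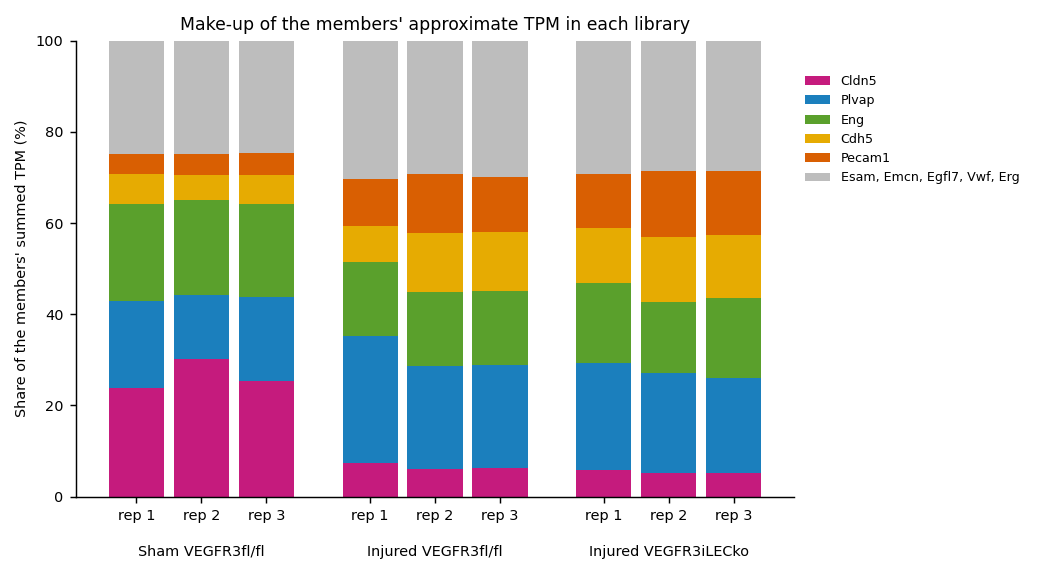
Share of each member in the members' summed approximate TPM (vertical axis, percent) in each of the 9 libraries. Cldn5 takes 23.8% to 30.2% in Sham and 5.06% to 7.31% in the injured libraries.

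Other endothelial genes were described from lists that the members are not part of. The counts of each list after injury stand beside 22.1% of all genes tested called higher and 17.5% called lower. Of 22 other pan-endothelial genes, 16 rose, 1 fell and 5 did not pass, with a median log2 fold change of 1.26. Cd93, a receptor of endothelial and myeloid cells, rose from 38.1 to 362 CPM (log2 3.25) and Ecscr, an endothelial surface protein, by 2.55, while Flt1, a VEGF receptor that binds and sequesters VEGF, fell by 0.84. Ptprb, the endothelial phosphatase that dephosphorylates Tie2 and VE-cadherin, had 82.8 CPM in Sham and 90.5 CPM after injury and did not pass (log2 0.13, adjusted p = 0.274). Of 16 endothelial transcription factors, 10 rose, 0 fell and 6 did not pass (median 1.15). Bcl6b rose by 3.72 and Hhex by 2.21, while Lmo2 (-0.26, adjusted p = 0.186) and Klf4 (-0.07, adjusted p = 0.715) did not pass.

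Cdh5, Cldn5 and Esam work with scaffold and adhesion proteins at junctions. Of 16 such junction partners, 2 rose, 6 fell and 8 did not pass (median -0.40). Cgn, the tight junction scaffold cingulin, fell by 1.53 and Jam2, an adhesion molecule, by 1.36. F11r (JAM-A) rose by 0.94 and Marveld2 (tricellulin), at 1.46 CPM in Sham, by 1.08. Many of these genes are also used by the epithelia of the iris, whose markers fell as well, and their part was not tested.

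Of 14 genes of barrier endothelium, 8 fell, 2 rose and 4 did not pass after injury (median -1.51), and the numbers for VEGFR3iLECko against Sham were also 8, 2 and 4. Mfsd2a, a lipid transporter of barrier vessels, fell by 3.54, to 0.993 CPM from 11.6 CPM, and Slco1a4, an organic anion transporter, by 3.40, to 8.64 CPM from 91.4 CPM. Mfsd2a fell by 4.23 without injured replicate 1. Itm2a, which is also known from barrier endothelium, rose by 2.25, with 991, 194 and 258 CPM in injured replicates 1 to 3. Without injured replicate 1 its rise was 1.16 (edgeR, adjusted p = 0.000438). Pglyrp1 rose by 1.68, a call that was lost without Sham replicate 1, Sham replicate 3, injured replicate 2 or injured replicate 3 (1.35, adjusted p = 0.0772, without injured replicate 2). The summed CPM of the list was 2512 to 2662 in Sham, 966 to 1588 in injured VEGFR3fl/fl and 1234 to 1411 in VEGFR3iLECko. Slc2a1, a glucose transporter, held 1690 to 1888 CPM of this sum in Sham and 416 to 556 CPM in injured VEGFR3fl/fl. The other 13 genes summed to 774, 821 and 785 CPM in Sham and 507 to 591 CPM in VEGFR3iLECko. In injured replicates 1 to 3 they summed to 1172, 422 and 511 CPM, so that replicate 1 lay above Sham. Several transporters of the list, such as those for glucose and amino acids, are also used by iris epithelia, so that the list is not limited to vessels.

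Genes of vessel subtypes and of sprouting vessels were counted as separate lists. Of 14 genes of sprouting endothelium 11 rose, 0 fell and 3 did not pass (median 2.07). Aplnr, the apelin receptor, rose by 6.12 from 1.51 CPM in Sham, and Cxcr4 by 5.21, whereas Adm (-0.01) and Nid2 (-0.07) did not pass. The part of leukocytes, whose markers rose too, in the rise of Cxcr4 was not tested. The list also holds genes of vessel matrix. The part of fibroblasts, whose markers rose as well, in the count of this list was not tested. Without injured replicate 2, Adm was called lower (-0.70, adjusted p = 0.0179). Of 10 venous and postcapillary genes 7 rose, 1 fell and 2 did not pass (median 2.14). Selp, the P-selectin of Weibel-Palade bodies and platelets, was among them (log2 6.56, at 0.447 CPM in Sham and 42.9 CPM in injured VEGFR3fl/fl), while the venous factor Nr2f2 fell by 0.71. Without injured replicate 1, Selp rose by 5.63. Of 6 capillary genes tested 5 rose and 1 did not pass (median 2.21), among them Fabp4, a fatty acid carrier that macrophages and fat cells also use, by 8.26 from 0.337 CPM, and Gpihbp1, the anchor of lipoprotein lipase, by 4.86 from 0.599 CPM. Of 11 arterial genes 4 rose, 2 fell and 5 did not pass (median 0.33). Mgp, a matrix protein also made by fibroblasts, rose by 4.13, or by 3.36 without injured replicate 1, and Bmx fell by 1.14. Without injured replicate 2, 4 of the arterial genes were called lower.

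**Figure D5:**
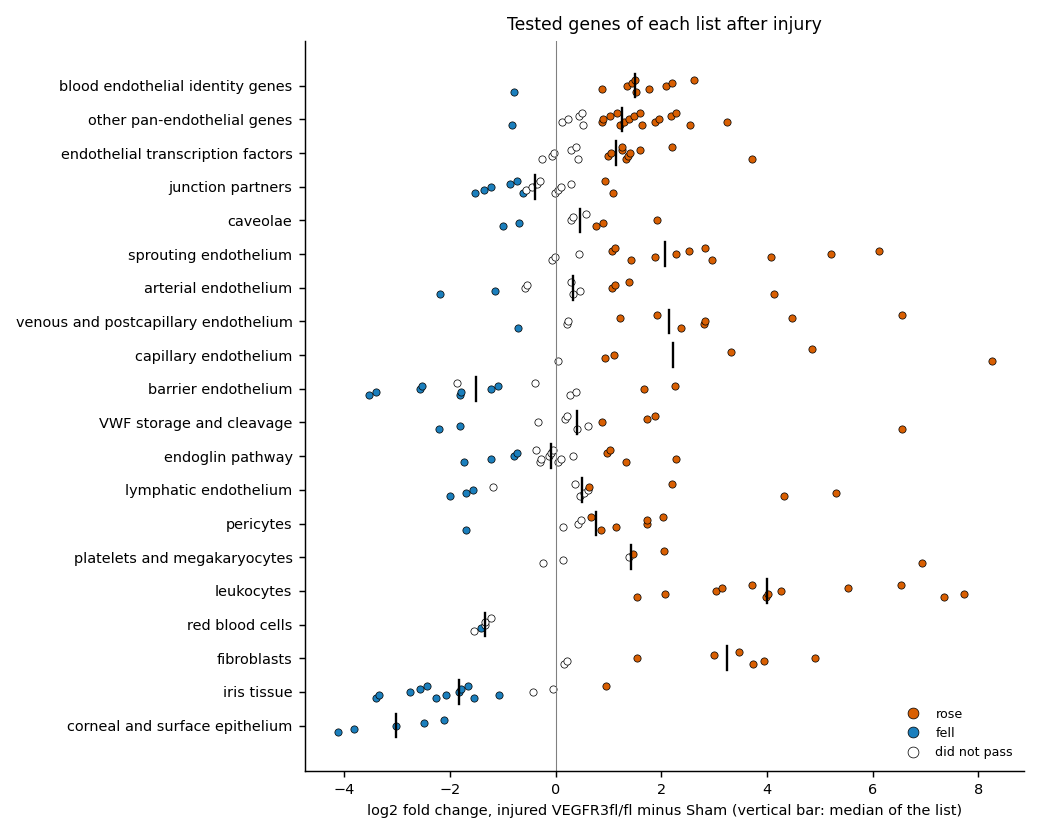
Log2 fold change after injury (horizontal axis, injured VEGFR3fl/fl minus Sham) of each tested gene of the endothelial and other lists (rows), filled where it rose or fell by the test, with the median of each list as a vertical bar. Barrier endothelium has a median of -1.51 and junction partners of -0.40, while the blood endothelial identity genes have 1.51.

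The molecules that work with single members were read in the same way. Of 8 genes of caveolae, where Plvap forms diaphragms, 3 rose, 2 fell and 3 did not pass (median 0.45). Cav1, the main coat protein of caveolae, rose by 1.92 and Cavin3 by 0.90, while Cavin2 fell by 1.00 and Pacsin2 by 0.69. Of 11 tested genes of Vwf storage and cleavage, 4 rose, 2 fell and 5 did not pass (median 0.40). Selp and Angpt2, both stored with Vwf, rose, Angpt2 by 1.87, whereas Edn1, which encodes endothelin-1, fell by 2.202 and Rab27a, a GTPase of secretory granules and melanosomes, by 1.80. Of 17 tested genes of the Eng pathway, 4 rose, 4 fell and 9 did not pass (median -0.09). These counts lay near the shares over all genes tested, 22.1% higher and 17.5% lower. Tgfb1, a ligand, and Tgfbr2, a receptor, rose by 2.28 and 1.34, while Smad9, a BMP effector, fell by 1.74 and Tmem100, a target of BMP9 signals in endothelium, by 1.22.

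Markers of other cells that share members moved too. Of 12 tested leukocyte markers 12 rose (median 4.0), with a summed CPM of 297 to 303 in Sham, 10610 to 19180 in injured VEGFR3fl/fl and 8044 to 9271 in VEGFR3iLECko. Lyz2 held most of the sums of the injured groups. The other 13 markers summed to 155 to 160 CPM in Sham and 1494 to 1616 CPM in injured VEGFR3fl/fl. In VEGFR3iLECko they summed to 1220 to 1891 CPM, so that the injured groups overlapped. S100a8 and S100a9, made by neutrophils, rose by 7.74 and 7.35, and S100a9 by 8.0 without Sham replicate 3. Of 6 tested platelet and megakaryocyte markers 3 rose and 3 did not pass (median 1.43), and the sum of all 11 was 25.0 to 29.7 CPM in Sham, 40.8 to 132 CPM in injured VEGFR3fl/fl and 47.4 to 126 CPM in VEGFR3iLECko. Pf4 had 17.4, 108 and 30.4 CPM in injured replicates 1 to 3 and rose by 2.05. This call was lost without injured replicate 2 (0.93, adjusted p = 0.161) and without any of the 3 Sham libraries. The platelet receptor gene Gp1ba had 6.99 CPM in Sham and 5.93 CPM after injury and did not pass (log2 -0.24, adjusted p = 0.262). Of 12 lymphatic genes 4 rose, 3 fell and 5 did not pass (median 0.50). Without injured replicate 1, 2 of the lymphatic genes rose. With all libraries, Prox1 did not pass (log2 0.54, edgeR adjusted p = 0.49). Flt4 did not reach 1.5-fold (log2 0.46, edgeR adjusted p = 0.0234). Ccl21a, a chemokine of lymphatic endothelium whose near-identical gene copies can share counts, had 92.4, 4.62 and 0 CPM in injured replicates 1 to 3. Its call (log2 5.32) rested on injured replicate 1 and was lost without it (1.51, adjusted p = 0.28) and without any of the 3 Sham libraries. Reln fell by 2.0 from 505 CPM in Sham, where Prox1 had 1.84 CPM, and the part of other cells in it was not tested. Of 10 pericyte genes 6 rose, 1 fell and 3 did not pass (median 0.77), with Mcam, which endothelium also uses, rising by 2.03 and Pdgfrb by 1.73. When a library was left out, 5 to 8 pericyte genes rose and 0 to 1 fell. Of 8 fibroblast genes 6 rose and 2 did not pass (median 3.24). When a library was left out, 5 to 6 fibroblast genes rose and 0 to 1 fell. Of 5 tested red cell genes 1 fell and 4 did not pass (median -1.35; 0 to 4 fell when a library was left out), and of 5 tested genes of corneal and surface epithelium 5 fell (median -3.02; 3 to 5 when a library was left out), with a sum of 3.38 to 68.2 CPM in Sham and 1.70 to 6.32 CPM in injured VEGFR3fl/fl. No marker of these lists was at 0 in all 9 libraries. The part of these cells in the rise of Pecam1, Vwf and the other members was not tested.

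The second comparison, VEGFR3iLECko against injured VEGFR3fl/fl, asks what deletion in Prox1-expressing cells does to these genes after CAI. It shares the injured VEGFR3fl/fl libraries with the first. Of the 10 members, 0 were called higher and 0 lower by edgeR, where 0.573% of all genes tested were called higher and 0.466% lower. Unadjusted p was under 0.05 for 3 members, Cldn5, Egfl7 and Plvap, a share near the 24.5% of all genes tested, and the alternative test of DESeq2 called 0 members past 1.5-fold. The median log2 fold change was -0.24, against -0.01 for all genes tested, with 8 members lower and 2 higher.

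Cldn5 had a log2 difference of -0.48 ± 0.15 (SE, 95% confidence interval -0.82 to -0.14, adjusted p = 0.109), the farthest from 0 relative to its error of the 10 members. In DESeq2 the difference was -0.48 with an adjusted p of 0.0397 and did not reach 1.5-fold. Plvap (-0.35, interval -0.65 to -0.05, adjusted p = 0.156) and Egfl7 (-0.31, interval -0.55 to -0.07, adjusted p = 0.138) were lower in every VEGFR3iLECko library than in every injured VEGFR3fl/fl library, as Cldn5 was. A group lay wholly below in this way in 14.3% of all genes tested, and wholly above in 12.4%, where 0 members did. Erg had -0.57 (interval -1.15 to 0.00, adjusted p = 0.206), and -0.15 without injured VEGFR3fl/fl replicate 1. Without that library Cldn5, Plvap and Egfl7 had -0.34, -0.19 and -0.20. Against injured VEGFR3fl/fl replicate 3 alone, in which Y-linked genes were as low as in VEGFR3iLECko, Cldn5 had -0.37 (adjusted p = 0.446 in a fit that assumes this library to vary like the others) and 0 members were called, in a fit that called 2 genes higher and 10 lower in all. With replicate 1 as the sole VEGFR3iLECko library, whose genotype tag fits its title, Cldn5 had -0.36 (adjusted p = 0.669) and again 0 members were called, in a fit that called 0 genes of 15507.

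Cdh5 (0.07, interval -0.28 to 0.42), Vwf (0.07, interval -0.31 to 0.44) and Pecam1 (-0.01, interval -0.25 to 0.23) overlapped between the injured groups. Emcn (-0.28), Esam (-0.20) and Eng (-0.15) overlapped as well, with adjusted p from 0.225 to 0.312. The intervals do not show that the members were the same in both genotypes: the one for Erg reaches down to -1.15. Against the other members, Cldn5 again lay lower in VEGFR3iLECko, with a log2 ratio of -1.70, -1.93 and -1.94 (difference -0.30, exact permutation p = 0.1, adjusted 0.571). In the other lists, 0 to 1 gene was called in either direction, with Reln higher by 0.75 among lymphatic genes (adjusted p = 0.0361), Cd14 higher and Adgre1 lower among leukocyte markers. Reln had 505 CPM in Sham, where Prox1 had 1.84 CPM, so that its RNA cannot be assigned to lymphatic endothelium. The other 11 lymphatic genes were not called. Barrier endothelium had a median of 0.43 over 14 genes with 0 called.

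Against Sham, VEGFR3iLECko had 9 members higher and 1 lower, where 19.7% of all genes tested were called higher and 15.0% lower. The median was 1.35, and all 10 members were free of overlap, against 33.3% of all genes above and 33.2% below. Changes ran from 2.60 for Pecam1, 2.15 for Cdh5, 1.63 for Erg and 1.59 for Vwf to 0.73 for Eng. Plvap, Esam, Emcn and Egfl7 rose by 1.41, 1.29, 1.16 and 1.04. Cldn5 fell by 1.27 (SE 0.15, adjusted p = 0.000113), beside its fall of 0.79 in injured VEGFR3fl/fl, and the Sham libraries are common to both values. Summed CPM of Y-linked genes was 51.1 to 167 in Sham and 0.736 to 1.11 in VEGFR3iLECko. Injury, genotype and the share of male irises therefore cannot be told apart in this comparison.

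Across the 9 libraries, the log2 CPM of 9 members followed the mean of the other members with Pearson's r between 0.92 and 0.99, and Cldn5 with -0.84. These values describe libraries that form 2 separate levels, Sham and injured, and are given without a test. By the same measure, Evi2a (r = 0.9994), Fhl2 (0.9989) and Rasa3 (0.9986) were among the 5 genes most like the mean of the 10 members, of 14212 candidates. A value over 0.95 was reached by 1463 candidates, so that the pattern of low in Sham and high in both injured groups was shared widely.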

How the data were processed

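Iris RNA (TruSeq mRNA libraries, single-end reads of 50 bases) was measured in 9 libraries. Per the labels, the authors' processing notes name HISAT2 2.0.4, Bowtie2 2.2.5, DESeq2 1.4.5 and build mm10, and the authors deposited expected counts per gene, not normalized, of which 9.83% to 10.3% per library were not whole. The counting program and annotation were not given in the sources used here. A combined deposited table with the same values was not used. Groups followed titles. Expected counts were rounded and fitted with all 9 libraries in edgeR 4.0.16 (R 4.3.3; filterByExpr, TMM, group as the only term), with adjustment over 15010 genes. A call was an adjusted p under 0.05 with more than 1.5-fold change, and SE came from the F statistic. The study's methods use DESeq2, here an alternative (1.42.0). P-values measure the spread between pooled libraries. The members and gene lists were chosen with earlier results of these data known. The rule on named genes took all members, Flt4 and Prox1, the 5 genes most like the members (of which 2 are not reported here), and from each other list up to 2 genes with the largest and 2 with the smallest change after injury among those with a mean of at least 1 CPM; Cd14, Adgre1 and Reln in the genotype comparison were named after their values were seen, as the calls of their lists. Lyz2 and Slc2a1 were named as the genes with the highest mean CPM of their lists, to set them apart from the sums. Approximate TPM and positions used GENCODE M21 (GRCm38), in which 97.6% of genes had a transcript length. Sequences came from RefSeq (GRCm38.p6). Alternatives covered scaling, filter, test, libraries fitted, thresholds, a replicate block, Y-linked expression as a covariate and leaving out each library. The restriction to libraries low in Y-linked genes, and to the library whose genotype tag fits its title, was added after seeing the data, as were the values of named genes and lists without each library. The procedure was tested on simulated data.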

Additional observations from a re-analysis of the deposited data

How the results depend on the processing

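After injury, and for VEGFR3iLECko against Sham, 9 members were called higher and 1 lower under every alternative run except the 2-fold threshold, under which 8 were called higher in both comparisons, with 0 lower in injured VEGFR3fl/fl and 1 lower in VEGFR3iLECko. Each member kept its direction and its side of adjusted p = 0.05 in 200 of 200 values over the alternatives of each of these comparisons. Some of these alternatives left out only libraries of the group not compared. Such fits could hardly move a fold change, and their values say little about its stability. Leaving out 1 library at a time gave a median log2 fold change of the members from 1.46 to 1.6 after injury, from -0.27 to -0.14 between the injured groups and from 1.32 to 1.4 for VEGFR3iLECko against Sham. Scaling by library size alone moved the median of all genes to -0.16 after injury and to -0.12 for VEGFR3iLECko against Sham, with 2783 genes called higher and 3523 lower after injury where TMM gave 3323 and 2630.

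Between the injured groups 0 members were called under any alternative. This does not speak for stability, since over 20 alternatives the genes called of all tested ranged from 0 to 630, with 0 in 3 of them (the 6 libraries compared, without VEGFR3iLECko replicate 2, and VEGFR3iLECko replicate 1 alone). Values near 0 changed sign. Cdh5 lay between -0.106 and 0.173 when a library was left out, and had -0.108 with the Y-linked covariate, -0.111 against injured replicate 3 alone and -0.0849 with VEGFR3iLECko replicate 1 alone. Vwf lay between -0.124 and 0.202, and had -0.178, -0.168 and -0.0608 in these settings. Pecam1 lay between -0.075 and 0.09, and had 0.0538 with library size only and 0.00148 with the 6 libraries compared. Cldn5 passed adjusted p = 0.05 in DESeq2 (0.0397), and its adjusted p ranged up to 0.669 over its alternatives. The Y-linked covariate left 0 genes higher and 2 lower of all genes tested, where the fit without it gave 86 and 70. Leaving out a library changed the sign of some ratios to the other members. After injury these lay between -0.0484 and 0.215 for Esam, -0.161 and 0.105 for Emcn and -0.104 and 0.343 for Vwf, and between the injured groups between -0.146 and 0.117 for Esam, -0.193 and 0.0742 for Emcn and -0.54 and 0.0192 for Erg. Causes of these changes were not tested.

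Replicate numbers did not pair the libraries: deviations of 9 same-numbered pairs correlated at -0.387 to 0.131, and 2 of 9 libraries correlated best with a library of their own number. With the replicate number as a block, 9 members were called higher and 1 lower after injury and 0 between the injured groups, and the calls over all genes between the injured groups went from 86 higher and 70 lower to 11 and 13. With 3 libraries in a group, 1 library decided several of the values above, and no exact test over 3 against 3 can pass 0.05.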
